A study of Bos taurus with 18 samples.

Results

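miR-21 is a microRNA (miRNA) made from a single hairpin whose 2 arms each give a mature strand, miR-21-5p and miR-21-3p. Its levels were followed here in small RNA libraries of papillae from the rumen, the forestomach of cattle. The members are the 2 library entries named bta-miR-21-5p and bta-miR-21-3p, 2 of 966 names listed in the files and 2 of 824 miRNAs once names for the same miRNA were merged. They were chosen by name and not by their response. The 18 libraries came from 9 rumen-cannulated, non-lactating Holstein cows fed forage alone at first (FD, 100% forage) and a high-grain ration later (HG, 65% concentrate). The 4 groups were HG_PHY (high grain, cows in the PHY treatment group, n = 4), HG_CON (high grain, control cows, n = 5), FD_PHY (forage, cows in the PHY treatment group, n = 4) and FD_CON (forage, control cows, n = 5). The cows of the PHY group are described as supplemented. The sources used here give neither what PHY stands for nor whether it was fed during the forage period. Every grain library was taken after the forage period, so diet and time cannot be told apart. The sources used here give no age.

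A miRNA hairpin is cut by Dicer into a short duplex, and usually one strand, the guide, is kept in Argonaute while the other, the passenger, is lost. In miR-21 the guide is miR-21-5p, and miR-21-3p is the passenger. miR-21-5p is known mainly from human and rodent work as one of the most abundant miRNAs of epithelia, fibroblasts and immune cells, where it represses transcripts such as that of PDCD4, and as a miRNA induced by STAT3 and AP-1 during inflammation, wound repair and fibrosis. The rumen papilla is covered by a stratified epithelium over a connective tissue core with vessels.

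Per the files, both strands lie on the plus strand of bovine chromosome 19 on the hairpin bta-mir-21. miR-21-5p is placed at chr19:11033079-11033102, which is 24 nt, and miR-21-3p at chr19:11033118-11033139, which is 22 nt, with 15 nt between them. The build behind these positions is not given in the sources used, and the RefSeq table of bovine genes (assembly ARS-UCD2.0) was used only for gene order. In that table MIR21 lies between VMP1, a gene for a membrane protein of autophagy, and TUBD1, a tubulin gene, and overlaps 0 other listed genes. These 2 names were the only names on this hairpin in the files.

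miR-21-5p was the most abundant miRNA in 17 of 18 libraries. Shares are given as the percent of reads counted once per miRNA. In HG_PHY the shares were 23.0%, 22.8%, 23.1% and 26.9% for replicates 1 to 4. In HG_CON they were 21.4%, 17.1%, 19.7%, 22.3% and 24.2% for replicates 1 to 5. The values lay within a narrow band apart from 1 high PHY and 1 low control library on grain. In FD_PHY the shares were 25.2%, 24.8%, 22.2% and 23.6% for replicates 1 to 4. In FD_CON they were 24.2%, 17.0%, 22.6%, 21.2% and 27.8% for replicates 1 to 5. The control cows on forage thus held both the lowest and the highest of the 18 values, and the groups overlapped. FD_CON 2 was the library in which miR-143, a miRNA of smooth muscle and other mesenchymal cells, came ahead, with 23.3% of the reads.

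Over the 18 libraries miR-21-5p averaged 22.7% ± 2.85 (SD), and the highest share was 1.64 times the lowest. The coefficient of variation was 12.6%. Among the 10 most abundant miRNAs this coefficient ran between 8.46% for miR-27b and 34.5% for miR-30a-5p, and miR-143 had 24.1%. Reads counted per library numbered 5739789 to 15204018, which was 27.1% to 48.7% of all reads of the library. At this depth the 95% Wilson interval of a miR-21-5p share extended at most 0.0337 percentage points to either side, so the spread between libraries was far larger than counting error. Such intervals cover counting error only, since reads copied by PCR are not independent molecules.

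**Figure D1:**
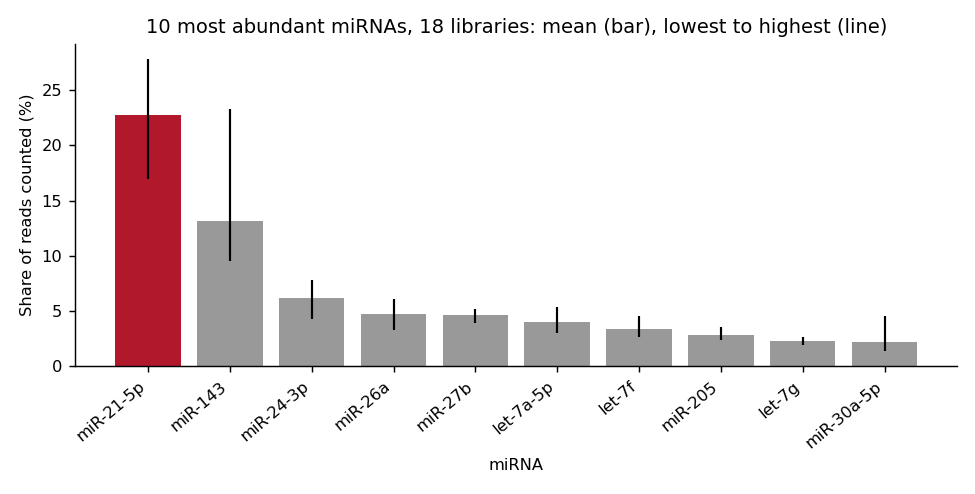
Mean share of the reads counted (percent, vertical axis) of the 10 most abundant miRNAs over 18 libraries, with a line from the lowest to the highest library. miR-21-5p, in red, averaged 22.7% and reached between 17.0% and 27.8%, ahead of miR-143 with a mean of 13.1%.

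miR-21-3p was present in every library at a much lower level, between 274 and 648 reads, against 1226106 to 3576971 reads of miR-21-5p. In HG_PHY it had 58.5, 41.6, 30.9 and 45.5 RPM, reads scaled to the counted reads of the library, for replicates 1 to 4. In HG_CON it had 48.1, 28.7, 33.9, 46.1 and 56.2 RPM for replicates 1 to 5. On grain the values of PHY and control cows covered nearly the same range. In FD_PHY it had 55.6, 49.7, 55.5 and 29.4 RPM for replicates 1 to 4. In FD_CON it had 46.0, 18.02, 28.4, 29.8 and 55.5 RPM for replicates 1 to 5. Of the forage libraries, 3 of the controls and 1 of the PHY cows lay at or below 29.8 RPM, and the others at 46.0 or more.

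The level of miR-21-3p placed it at rank 175 to 222 among the 515 to 591 miRNAs seen in a library. Its coefficient of variation was 29.4%, and the highest share was 3.25 times the lowest. Counting alone would give a coefficient of 3.93% to 6.04% at these read numbers. In FD_CON 2, the lowest library, the 95% Wilson interval ran between 16.0 and 20.3 RPM.

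**Figure D2:**
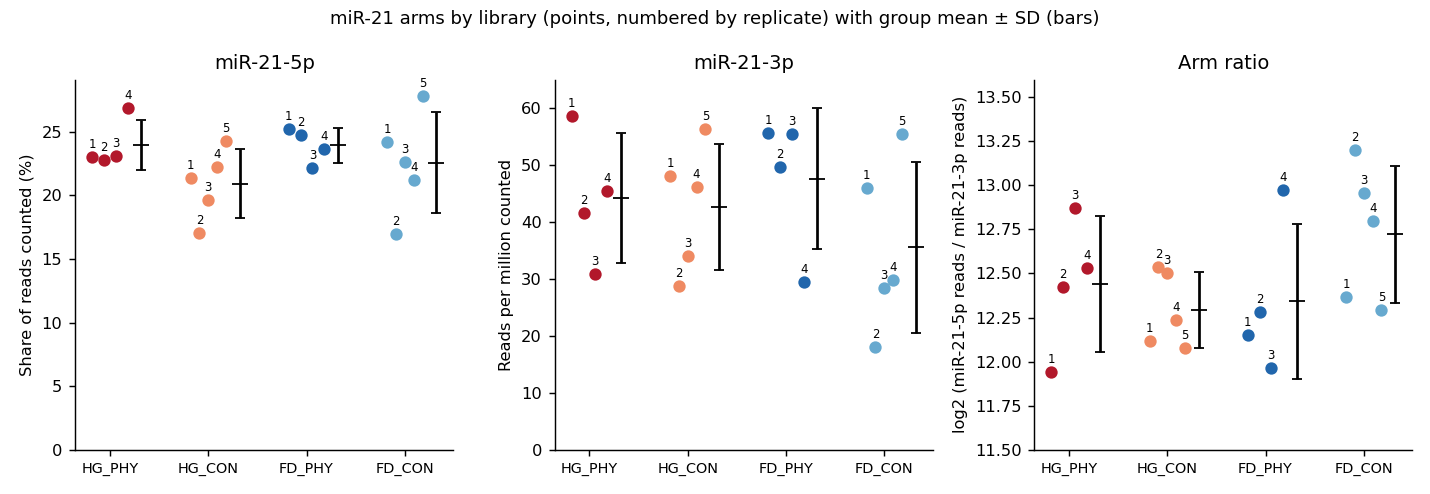
Share of miR-21-5p (percent of reads counted), miR-21-3p (RPM counted) and the log2 ratio of their reads in each library, by group, with replicate numbers beside the points and the group mean ± SD as bars. The groups overlap in all 3 panels, and the log2 ratio runs from 11.9 to 13.2.

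The imbalance between the arms was large in every library. Over all libraries 39198859 reads fell on miR-21-5p and 6980 on miR-21-3p, so that 99.98% of the reads of the hairpin came from the 5p arm. In HG_PHY there were 3932, 5490, 7482 and 5912 reads of miR-21-5p for each read of miR-21-3p in replicates 1 to 4. In HG_CON the ratio was 4442, 5940, 5797, 4830 and 4314 in replicates 1 to 5. In FD_PHY it was 4540, 4983, 3996 and 8035 in replicates 1 to 4. FD_CON had ratios of 5272, 9421, 7959, 7121 and 5011 in replicates 1 to 5. The 3 control forage libraries 2, 3 and 4 were the highest of the controls, FD_PHY 4 was high among the PHY cows on forage, and HG_PHY 3 was the highest on grain.

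The ratio differed by up to 2.40-fold between libraries. The SD of its log2 value over the 18 libraries was 0.37, while counting error alone would give 0.08. The authors' adjusted counts, in which reads are divided over the names and loci they fit, were 0.5 of the raw counts for both arms in every library, to 4 decimals. The other name or place that took the rest is not given in the files used here. As a share of adjusted counts miR-21-5p averaged 18.04% ± 2.59, against 22.7% of the raw reads counted (n = 18). The ratio of the arms was therefore the same in raw and adjusted counts.

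The ratio was set against that of other hairpins with a 5p and a 3p name of the same species prefix. Of 121 such pairs, 64 distinct ones had reads of both arms in all 18 libraries, and the 5p arm led in 33 of them. miR-21 had the highest ratio of the 64, with 5616 reads of the lead arm per read of the other arm when libraries were summed, against a median of 11.2. Below it came let-7g (human names, 4229) and miR-10174, whose 3p arm led (1646). The ratio was above 1000 in 5 pairs and above 100 in 16. Pairs whose rarer arm was missing in some library were left out, and 1 of them, miR-320a under its human name, had a higher ratio with only 30 reads of its rarer arm. This rule caps the ratio of a pair with few reads of its lead arm, and such pairs could not have reached 5616. The rank of miR-21 and its gap to the median thus depend in part on abundance. Most of the 10 most abundant miRNAs, among them miR-143 and miR-205, had no pair among the 64. Of those 10, only let-7a and let-7g were ranked beside miR-21. The rank thus holds for the pairs listed and not for all hairpins. The SD of the log2 ratio of miR-21 over libraries ranked 28 of 64 from the low end, and the median SD was 0.42. This is a description of these libraries, since adapter ligation and amplification can favour a strand and no standard of known amount was used here.

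**Figure D3:**
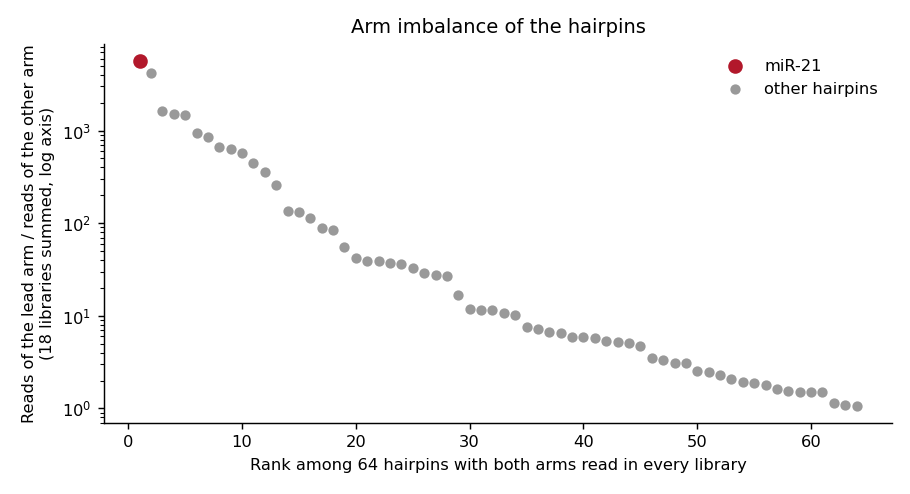
Ratio of the lead arm to the other arm (reads summed over 18 libraries, log axis) for 64 hairpins, ranked from the highest. Both arms of each had a name and were read in every library. miR-21, in red, has the highest ratio at 5616, followed by let-7g at 4229, and the median is 11.2.

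The files also give the number of distinct read sequences behind each entry. miR-21-5p was represented by 636 to 1032 distinct sequences per library and miR-21-3p by 19 to 33. HG_PHY 4 had the most of both, and the library with the most reads of miR-21-5p was the same one. There were 1928 to 3466 reads per distinct sequence of miR-21-5p and 13.0 to 21.6 per distinct sequence of miR-21-3p. These sequences include trimmed, extended and misread forms together, which the files do not separate.

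The question of the diet was asked with edgeR's quasi-likelihood test over all 468 miRNAs that passed the filter, with levels as CPM after TMM scaling of the raw counts. Both arms passed that filter. miR-21-5p stood at 214985 ± 33397 CPM on grain and 240247 ± 27868 CPM on forage (SD, n = 9 each). Its log2 fold change was -0.15 ± 0.09 (SE; 95% interval -0.34 to 0.04; adjusted p = 0.538 by edgeR). Of the 9 grain libraries, 8 lay below the forage mean and 3 below every forage library. miR-21-3p stood at 41.6 ± 10.04 CPM on grain and 41.8 ± 13.5 CPM on forage, with a log2 fold change of -0.01 ± 0.19 (95% interval -0.42 to 0.39; adjusted p = 0.972 by edgeR). Of the 468 miRNAs, 0.214% were called in this comparison and 10.7% had an unadjusted p under 0.05. miR-21-5p, with an unadjusted p of 0.119, and miR-21-3p were in neither set. As a share of the reads miR-21-5p averaged 22.3% ± 2.77 on grain and 23.2% ± 3.02 on forage (exact permutation p = 0.515, adjusted p = 0.724, two-sided). That difference of -0.91 points ran between -1.68 without FD_CON 2 and -0.26 without HG_CON 2, and was -1.49 without HG_PHY 4, -0.58 without HG_CON 3 and -0.33 without FD_CON 5. The log2 ratio of the arms averaged 12.4 ± 0.29 on grain and 12.6 ± 0.43 on forage, a difference of -0.19 ± 0.17 (SE; exact permutation p = 0.276, adjusted p = 0.461) that was -0.11 without FD_CON 2. The ratio thus pointed the same way as miR-21-5p without passing.

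In control cows alone, miR-21-5p was at 199598 ± 29535 CPM in HG_CON and 244282 ± 36425 CPM in FD_CON (SD, n = 5 each). The HG_CON libraries had 194082, 166883, 178285, 220385 and 238356 CPM, and the FD_CON libraries 250917, 208214, 227987, 230736 and 303553 CPM, for replicates 1 to 5. All 5 grain libraries lay below the forage mean and 3 below every forage library, so the groups overlapped. The log2 fold change was -0.29 ± 0.12 (SE; 95% interval -0.55 to -0.04). It did not pass, with an adjusted p of 0.397 and an unadjusted p of 0.0264 by edgeR, in a comparison where 10.7% of the miRNAs had an unadjusted p under 0.05 and 0% were called.

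The size of this difference depended on the scale. As a share of the reads counted, miR-21-5p averaged 20.9% ± 2.72 in HG_CON and 22.6% ± 3.98 in FD_CON, and the log2 ratio of the means was -0.11. As a share of all reads of the library it averaged 6.83% ± 1.26 in HG_CON and 8.20% ± 0.79 in FD_CON, a log2 ratio of -0.26, and with the reads of miR-143 taken out of the base the log2 ratio was -0.17. The direction was the same on each of these scales. The share of reads counted differed by -1.64 ± 2.15 percentage points (SE; exact permutation p = 0.476, adjusted p = 0.724), and by -3.04 points without FD_CON 2, -2.47 without HG_CON 5, -0.68 without HG_CON 2 and -0.33 without FD_CON 5.

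The summed level of the 2 listed smooth muscle markers, miR-143 and miR-145, was 102632 to 132251 CPM in HG_CON and 138069 to 296785 CPM in FD_CON. On this CPM scale the control groups did not overlap. Both markers had a log2 fold change below 0 in control cows, -0.61 ± 0.17 for miR-143 and -0.54 ± 0.20 for miR-145. Neither passed edgeR there (adjusted p = 0.345 and 0.397) or DESeq2. For diet in all cows miR-143 stood at -0.51 ± 0.12 and miR-145 at -0.46 ± 0.15 (adjusted p = 0.110 and 0.221 by edgeR). DESeq2 called miR-143 in that comparison, and not miR-145. In PHY cows the summed level was 102134 to 111540 CPM in HG_PHY and 128685 to 165406 CPM in FD_PHY, also without overlap. miR-143 made up most of the sum, with a mean of 133130 CPM against 4504 CPM for miR-145 over the 18 libraries. As a share of the reads counted, miR-143 was 10.1% to 14.1% in HG_CON and 12.8% to 23.3% in FD_CON. On that scale the control groups overlapped, and the highest share was that of FD_CON 2. In PHY cows the share was 9.52% to 11.8% in HG_PHY and 12.5% to 16.8% in FD_PHY, without overlap. How many of all miRNAs tested separated in this way was not counted, so the lack of overlap is a description only. The part of this sum in the values of miR-21-5p was not tested. In tissue samples of this kind, fewer cells of a type and less RNA per cell cannot be told apart.

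miR-21-3p in control cows averaged 40.7 ± 11.2 CPM in HG_CON and 38.3 ± 15.6 CPM in FD_CON, with a log2 fold change of 0.09 ± 0.26 (adjusted p = 0.968 by edgeR) that fell on the other side of 0 without FD_CON 2 (-0.09), FD_CON 3 (-0.01) or HG_CON 5 (-0.05). Whether the arms moved apart is the question of their ratio. The log2 ratio of miR-21-5p to miR-21-3p averaged 12.3 ± 0.21 in HG_CON and 12.7 ± 0.39 in FD_CON, a difference of -0.43 ± 0.20 (SE). All 5 HG_CON libraries were below the FD_CON mean, and 3 were below every FD_CON library. The exact permutation test gave p = 0.0635, two-sided, and an adjusted p of 0.317 over the 5 comparisons, so the difference did not pass. The smallest p that 252 arrangements can give is 0.00794.

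In cows of the PHY treatment group neither arm passed the test of the diet. miR-21-5p was at 234218 ± 30388 CPM in HG_PHY and 235203 ± 15523 CPM in FD_PHY (SD, n = 4 each), with a log2 fold change of -0.01 ± 0.14 (95% interval -0.29 to 0.28; adjusted p = 0.993 by edgeR). The lower end of this interval is about the value found in control cows. miR-21-3p was at 42.8 ± 9.89 CPM in HG_PHY and 46.3 ± 10.7 CPM in FD_PHY (log2 fold change -0.11 ± 0.29, adjusted p = 0.988 by edgeR). The log2 ratio of the arms averaged 12.4 ± 0.38 in HG_PHY and 12.3 ± 0.44 in FD_PHY. Its difference of 0.10 ± 0.29 had an exact permutation p of 0.714, where 70 arrangements cannot give less than 0.0286. edgeR called 0% of the miRNAs in this comparison, and 7.05% had an unadjusted p under 0.05.

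Between treatment groups on grain, miR-21-5p was 234218 ± 30388 CPM in HG_PHY (n = 4) and 199598 ± 29535 CPM in HG_CON (n = 5). The log2 fold change was 0.23 ± 0.13 (SE; 95% interval -0.04 to 0.50; adjusted p = 0.677, unadjusted p = 0.0879 by edgeR), and all 4 PHY libraries lay above the control mean. As a share of the reads the difference was 3.03 ± 1.56 percentage points (exact permutation p = 0.111, adjusted p = 0.556). Without HG_PHY 4, the library with the highest share, it was 2.05 points. The log2 fold change of miR-21-3p was 0.07 ± 0.27 (adjusted p = 0.965 by edgeR), and the log2 ratio of the arms differed by 0.15 ± 0.21 (exact permutation p = 0.468). That difference was 0.00427 without HG_PHY 3, 0.09 without HG_CON 5 and 0.31 without HG_PHY 1. edgeR called 0% of the miRNAs, and 6.84% had an unadjusted p under 0.05.

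On forage, miR-21-5p was 235203 ± 15523 CPM in FD_PHY and 244282 ± 36425 CPM in FD_CON, a log2 fold change of -0.05 ± 0.13 (adjusted p = 0.929 by edgeR). The scales did not give the same sign here, since its share of the reads counted was 23.9% ± 1.36 in FD_PHY and 22.6% ± 3.98 in FD_CON, and the difference of 1.38 points was -0.0161 without FD_CON 2. miR-21-3p was 46.3 ± 10.7 CPM in FD_PHY and 38.3 ± 15.6 CPM in FD_CON (log2 fold change 0.27 ± 0.27, adjusted p = 0.929 by edgeR). The fold change was 0.12 without FD_CON 2, 0.45 without FD_PHY 4 and 0.50 without FD_CON 5. The log2 ratio of the arms was lower by 0.38 ± 0.28 in FD_PHY, with a mean of 12.3 against 12.7 in FD_CON (difference -0.38; exact permutation p = 0.214, adjusted p = 0.461), and the difference was -0.59 without FD_PHY 4. edgeR called 0% of the miRNAs, and 4.7% had an unadjusted p under 0.05.

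Whether the diet difference itself depended on the treatment was tested by the interaction. It was 0.29 ± 0.18 for miR-21-5p (95% interval -0.09 to 0.67; adjusted p = 0.997, unadjusted p = 0.133) and -0.20 ± 0.39 for miR-21-3p (adjusted p = 0.997), both by edgeR. The value of miR-21-3p was unsteady, between -0.43 without FD_CON 5 and -0.0191 without FD_CON 2, and leaving out FD_CON 2, 3 or 5, FD_PHY 1 or 4, HG_CON 3 or 5, or HG_PHY 1 or 3 moved it by over 1.5 times. The diet difference in control cows and the smaller one in PHY cows are thus not shown to differ. edgeR called 0% of the miRNAs for the interaction, and 2.14% had an unadjusted p under 0.05. The comparisons share libraries, so they do not count as separate evidence.

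**Figure D4:**
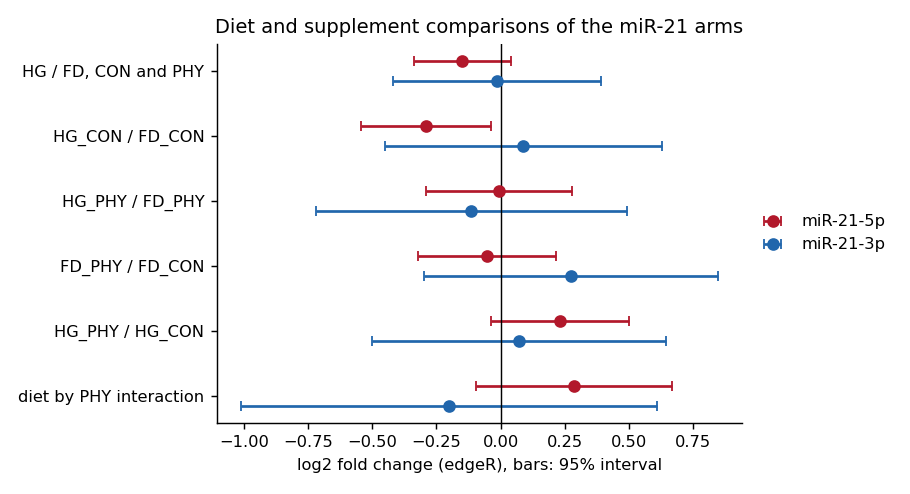
log2 fold changes (edgeR, horizontal axis) of miR-21-5p (red) and miR-21-3p (blue) in 6 comparisons, with 95% intervals as bars. The interval of miR-21-5p lies below 0 in HG_CON against FD_CON (-0.55 to -0.04) before adjustment over the miRNAs tested, and the other intervals include 0.

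The order of the group means for miR-21-5p by CPM was FD_CON, FD_PHY, HG_PHY and HG_CON, from high to low. For miR-21-3p it was FD_PHY, HG_PHY, HG_CON and FD_CON. All neighbours in these orders were compared by edgeR above, and no neighbouring pair passed the test.

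Across libraries the arms went up and down together only loosely. On the log2 CPM scale Pearson's r between them was 0.49 and Spearman's rho 0.45 over 18 libraries (permutation p = 0.0381 and 0.0637, adjusted p = 0.101 and 0.181 over 3 relations). Without FD_CON 5 and HG_CON 2, the libraries farthest from the median of miR-21-5p, r was 0.27. Within the 9 forage libraries r was 0.57 and rho 0.45 (exact permutation p = 0.101 and 0.230), and r was -0.04 without FD_CON 2 and FD_CON 5. Within the 9 grain libraries r was 0.60 and rho 0.57 (exact permutation p = 0.0881 and 0.121), and r was 0.41 without HG_CON 2 and HG_PHY 4. The relation did not pass after adjustment, and r was lower without the libraries named. The 18 libraries came from 9 cows, which these permutations treat as independent.

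**Figure D5:**
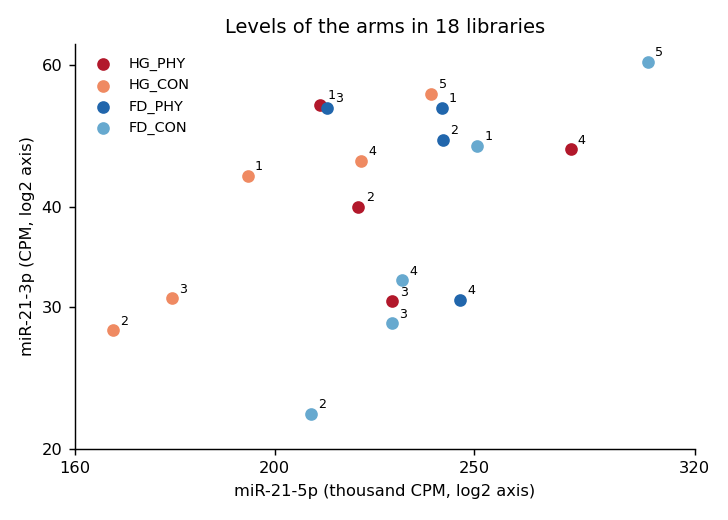
miR-21-5p (CPM in units of 1000, log2 axis) against miR-21-3p (CPM, log2 axis) in 18 libraries, coloured by group and numbered by replicate. FD_CON 5 is highest for both arms and FD_CON 2 lowest for miR-21-3p, and r is 0.49 over all libraries.

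Other miRNAs followed each arm more closely than the arms followed each other. Of 274 other miRNAs with a mean of at least 10 CPM, miR-21-3p ranked 32 in likeness to miR-21-5p, and miR-21-5p ranked 25 in likeness to miR-21-3p. Nearest to miR-21-5p over the 18 libraries were miR-22-3p (Spearman's rho 0.78), miR-31 (0.77), miR-17-5p (0.73), miR-23a (0.71) and miR-106a (0.68). Farthest from it were miR-151-3p (-0.88), miR-124-3p under its human name (-0.78) and miR-32 (-0.74). The abundant epithelial miR-205 had a rho of 0.42 with miR-21-5p and miR-143 one of -0.00310, so neither was among the nearest.

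Nearest to miR-21-3p were miR-18a-5p under its human name (rho 0.76), miR-130b (0.75), miR-17-5p (0.75), miR-19a (0.70) and miR-27a-5p (0.70). Farthest were miR-26a and miR-374b (both -0.84) and miR-30c-2-3p under its human name (-0.75). Only miR-17-5p was among the nearest 5 of both arms. These values are descriptions, and the points share the scaling of each library, of which miR-21-5p itself makes up more than any other miRNA on average. miR-17-5p and miR-106a belong to a family of near-identical miRNAs that can share reads, so their counts are uncertain.

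A list of miRNAs known, like miR-21, for altered levels in inflamed or fibrotic tissue had 14 members, all of which were tested. In control cows 14 of 14 had a log2 fold change below 0 on grain, with a median of -0.21 against -0.02 over all miRNAs tested. edgeR called 0 of them and DESeq2 0, and 3 had an unadjusted p under 0.05 by edgeR. Over all miRNAs tested 53.8% were below 0 and 10.7% had such a p. Members such as the arms of miR-199a and the miR-29 family are related, so the 14 do not count as separate evidence. The list sets no shared direction and was chosen with earlier results of these data known, so its count is a description. miR-222, which promotes cell cycle entry by repressing p27, stood at -0.42 ± 0.16 (adjusted p = 0.397), miR-199a-3p at -0.33 ± 0.15 (0.406) and miR-199a-5p at -0.29 ± 0.13 (0.430), all by edgeR. miR-31, a miRNA of keratinocytes and the second nearest to miR-21-5p, had a value of -0.22 ± 0.19 (0.803).

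For diet in all cows the list had 13 of 14 below 0 (median -0.13, against -0.01 and 50.9% below 0 over all miRNAs), with 0 called by edgeR, 4 at an unadjusted p under 0.05 and 1, miR-146a, called by DESeq2. miR-146a, which dampens NF-kappaB signalling, stood at -0.53 ± 0.13 (adjusted p = 0.110 by edgeR). In PHY cows 8 of 14 were below 0 (median -0.09), with 2 at an unadjusted p under 0.05, against a median of 0.01 with 49.4% below 0 and 7.05% at such a p over all miRNAs. Between treatment groups on forage, 12 of 14 were below 0 (median -0.10), with 1 at an unadjusted p under 0.05, against a median of -0.04 with 55.6% below 0 and 4.7% at such a p over all miRNAs. On grain 5 of 14 were below 0 (median 0.02), with 3 at an unadjusted p under 0.05, which were miR-221 at 0.41 ± 0.18, miR-146a at -0.46 ± 0.19 and miR-29a at -0.34 ± 0.13. Over all miRNAs the median on grain was 0.000378, with 49.8% below 0 and 6.84% at such a p. For the interaction 10 of 14 were above 0 (median 0.10), with 1 at an unadjusted p under 0.05, against a median of 0.04 with 56.4% above 0 and 2.14% at such a p over all miRNAs. edgeR and DESeq2 called 0 of the 14 in each of these last 4 comparisons.

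Of the 8 listed markers of a stratified epithelium, 7 were measured (no entry named miR-203 was found). Their summed level was 50199 to 71562 CPM per library, led by miR-205 (mean 28643 CPM), while miR-184 averaged 4.16 CPM. The 3 markers of columnar gut epithelium summed to 653 to 820 CPM. The lists differ in length, so their sums do not rank the cell types. Leukocyte markers (5 of 5 measured) summed to 2827 to 4852 CPM, fibroblast markers (3 of 3) to 5168 to 9211 CPM, endothelial markers (2 of 2) to 9452 to 16158 CPM and erythroid markers (3 of 3) to 6404 to 18352 CPM. None of these lists had a member at 0 in any library. In the comparison of control cows, all of these sums overlapped between HG_CON and FD_CON, unlike that of smooth muscle on the CPM scale. In PHY cows the endothelial sum was 9452 to 12984 CPM in HG_PHY and 13013 to 14857 CPM in FD_PHY, without overlap. Here too, the share of all miRNAs tested that separated in this way was not counted.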

How the data were processed

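Per the labels' protocols, RNA came from the NucleoSpin miRNA kit and sequencing libraries from the NETflex Small RNA-Seq kit. bcl2fastq 2.20 and DESeq2 are named in the submitters' processing notes, and aligner, counter and build in no source used here. Per the file headers, the authors deposited for each miRNA name a raw read count, the number of distinct sequences, an expected count (reads divided over the places they map to) and RPM of all reads, used here only for library totals. A deposited table holds a normalized signal for 673 names. With 1 factor per library 100% of its 12114 values became whole reads within 0.01, equal within 1 read to the rounded adjusted counts, whose count test is one of the alternatives.

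Names overlapping by at least 15 nt, or bovine and human names of a miRNA with totals within 5%, were merged (966 names, 824 miRNAs, 141 with several names), keeping the name with the most reads. edgeR 4.0.16 (R 4.3.3; filterByExpr, TMM, quasi-likelihood test, 1 mean per group, 18 libraries, no cow term) was adjusted by Benjamini-Hochberg over 468 miRNAs at 0.05, two-sided, and tested on simulated data. Shares and ratios used exact permutation tests (Python 3.11.15), adjusted over 5 comparisons. P-values treat the 18 libraries as independent although they came from 9 cows. The 32 replicate pairs within groups differed by 114.5 to 2780 chi-square per degree of freedom, so no library was a copy of another in its group. Libraries of different groups were not compared in this way. Alternatives covered scaling, filter, DESeq2 1.42.0, limma 3.58.1 with a pseudocount of 1, adjusted counts, names, the base of the share, a replicate block and leaving out libraries.

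The named miRNAs were the arms, the 5 nearest and 3 farthest by Spearman's rho (log2 of CPM + 0.5), the 10 most abundant, the arm pairs next in ratio, and members of the lists. The search for names sharing a seed was not carried out. The members and lists were chosen with earlier results of these data known.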

Additional observations from a re-analysis of the deposited data

Results flagged for a closer look

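In 3 of 24 groups of values checked, 1 library stood apart from the rest of its group, where about 1 in 20 would by chance. miR-21-5p made up 26.9% of the reads counted in HG_PHY 4, and the nearest library of that group had 23.1%. The same library had 33 distinct sequences of miR-21-3p, and the nearest had 21. It also had the most miR-21-3p reads of HG_PHY, 605 against a group median of 349. Its 18.3 reads per distinct sequence lay within the group range of 15.3 to 18.5. In HG_CON 5 miR-21-5p was 9.05% of all reads of the library, and the nearest library of that group had 6.51%.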

How the results depend on the processing

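Neither arm passed the threshold in any of 6 edgeR comparisons, nor did the share or the ratio, and 0 of 454 alternative values did. A test of log2 CPM in same-numbered libraries, given below without adjustment, was not among these. The log2 fold change of miR-21-5p in control cows lay between -0.30 and -0.27 over 9 settings, and between -0.38 and -0.20 (adjusted p 0.312 to 0.791) when 1 library was left out.

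Values that changed sign were all uncalled. The diet change of miR-21-3p was 0.0142 in limma-trend on the authors' values and 0.0131 with the replicate block. In PHY cows the diet difference of the miR-21-5p share was -1.08 points without miR-143 in the base, and on forage PHY minus CON was -0.0429 points of all reads. With 1 library left out, the miR-21-5p change ran from -0.0945 to 0.0365 for diet in PHY and from -0.11 to 0.0376 for PHY on forage. That of miR-21-3p ran from -0.10 to 0.10 for diet, -0.0913 to 0.32 for diet in CON, -0.28 to 0.0439 for diet in PHY and -0.0546 to 0.23 for PHY on grain. The share difference ran from -0.97 to 0.43 points for diet in PHY and from -0.0161 to 2.69 for PHY on forage, and the log2 ratio from -0.0442 to 0.31 for diet in PHY.

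For diet in all cows, edgeR called 1 miRNA of all tested, 0 with adjusted counts or the 10 CPM filter, 2 with every name kept separate, 3 with no filter, and 4 with the replicate block. DESeq2 called 5 and limma-trend 2. The edgeR number was 2 without FD_PHY 4, 3 without HG_CON 3, 1 without FD_CON 2 or HG_PHY 3, and 0 without any other library (range 0 to 3). The 1 call with all libraries was up on grain, as was that without HG_PHY 3, while the 1 without FD_CON 2 was down. For PHY on forage the number called was 0, but 1 in DESeq2, 1 with no filter and 0 to 1 with a library left out (1 without FD_CON 4). For PHY on grain it was 0, and 0 to 2 with a library left out (2 without HG_CON 4). The cause was not tested.

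The labels do not say that a replicate number is a cow. Same-numbered libraries correlated at -0.02 to 0.39 in their deviations, and 2 of 9 correlated best with their own number, so the numbers were not taken as pairs. With the replicate block the diet change of miR-21-5p was -0.29 in CON (adjusted p = 0.189) and -0.15 in all cows (0.245). If same numbers are paired, log2 CPM of miR-21-5p was lower on grain in 7 of 9 pairs (exact permutation p = 0.0469, sign flips, unadjusted). It was lower in 5 of 5 CON pairs (exact permutation p = 0.0625, the smallest possible) and 2 of 4 PHY pairs. The log2 ratio was also lower in 5 of 5 CON pairs. These pairs hold only if a number is a cow. Alternatives with human names of the arms were not run, as no such name was used here. Counting error was small beside the spread between libraries for both arms.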
